A study of Mus musculus with 12 samples.

Results

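The 37 genes described here encode proteins that make, elongate, desaturate, take up, store or burn fatty acids, together with the enzymes that build phosphatidylcholine. They were chosen by name, with earlier results of these data known, and all 37 were found among the 55450 genes counted. All 37 were also among the 20612 genes that passed the filter on low counts and were tested. RNA-seq was performed on type II alveolar epithelial (AT2) cells isolated from C57BL/6 mice of 6 to 8 weeks. AhRfl/fl mice, called wild type (WT) in the labels, carry a floxed Ahr gene, and Sftpc-Cre;AhRfl/fl mice (KO in the labels) carry the same floxed gene and Cre recombinase driven by Sftpc, a gene of AT2 cells. The isolated cells of each genotype were cultured on collagen I and given PBS or cockroach extract (CRE) at 50 µg/ml for 24 h, with 3 libraries in each of the 4 groups. Nothing in the labels says whether libraries came from separate mice, so p-values measure the spread between these libraries.

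AT2 cells make pulmonary surfactant, a lipid film rich in dipalmitoyl phosphatidylcholine that lowers surface tension in the alveolus. The fatty acids for it come from the circulation, through lipoprotein lipase and the translocase CD36, or are made from acetyl-CoA by acetyl-CoA carboxylase and fatty acid synthase under control of SREBP-1. Choline is joined to diacylglycerol by choline kinase, cytidylyl-transferase and cholinephosphotransferase. In remodelling, lysophosphatidylcholine acyltransferase 1 (Lpcat1) adds palmitate to lysophosphatidylcholine.

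The labelled cell type was checked first. The 10 AT2 markers summed to 4445 to 9227 CPM in each library (CPM is the count scaled to the library total with TMM factors), with Sftpc alone at 3086 to 6492 CPM, and 8 AT1 markers summed to 1898 to 3890 CPM and 3 club cell markers to 3976 to 8089 CPM. Cells bearing CD45 had been removed with magnetic beads, yet 5 leukocyte markers summed to 203 to 298 CPM in the 4 libraries numbered 1 and to 12.2 to 70.7 CPM in the other 8. Total counts per library lay between 68878065 and 80935797. The targeted gene could not be checked on its deleted exon. Whole-gene Ahr counts lay at 42.9, 43.8 and 45.1 CPM in WT cells with PBS and at 49.6, 40.2 and 45.7 CPM in KO cells with PBS, so the genotypes overlapped. With CRE the Ahr difference between KO and WT cells was -0.18 (log2, SE 0.12), not called by edgeR. The AhR target Cyp1b1 stood at 344 to 465 CPM in the 6 WT libraries and at 31.7 to 63.9 CPM in the 6 KO libraries. Cyp1a1, another target, was lower in KO cells by -1.67 with PBS and -1.38 with CRE (edgeR adjusted p = 0.193 and 0.454). Over both treatments its difference was -1.52 (SE 0.27, edgeR adjusted p = 0.0324).

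A total of 3 members passed the test of CRE against PBS over both genotypes, and their promoters are shown because these genes moved in the same direction. Each run comes from the 250 bases before the RefSeq start of the gene (GRCm38.p6) and is written 5′ to 3′ on the strand of the gene. The Cd36 run is chr5:17835897-17836146 on the minus strand, the Lpin1 run is chr12:16610967-16611216 on the minus strand and the Acss2 run is chr2:155517793-155517947 on the plus strand. The RefSeq start of Cd36 lies 179 bases from the nearest GENCODE M21 start, whereas that of Lpin1 is the same in both. The Cd36 run lies inside the annotated gene (chr5:17781690-17888801), so it precedes an internal start and not the outermost one. The Acss2 run is shorter and stops before its RefSeq start, where an exon of another Acss2 transcript begins, and none of the runs overlaps an annotated exon.
Cd36: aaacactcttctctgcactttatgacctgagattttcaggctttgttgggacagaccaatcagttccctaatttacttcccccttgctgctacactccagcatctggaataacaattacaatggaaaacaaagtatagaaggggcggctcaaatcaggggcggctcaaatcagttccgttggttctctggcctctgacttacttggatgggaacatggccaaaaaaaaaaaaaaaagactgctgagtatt
Lpin1: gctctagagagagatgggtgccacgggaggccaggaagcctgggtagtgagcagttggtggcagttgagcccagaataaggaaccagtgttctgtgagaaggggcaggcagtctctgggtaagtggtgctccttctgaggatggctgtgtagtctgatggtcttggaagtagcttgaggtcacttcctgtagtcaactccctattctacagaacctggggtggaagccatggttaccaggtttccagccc
Acss2: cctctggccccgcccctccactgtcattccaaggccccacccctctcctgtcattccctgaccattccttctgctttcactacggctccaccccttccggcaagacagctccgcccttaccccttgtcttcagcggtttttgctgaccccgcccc
The runs differ in base composition, with 43.2% G and C in Cd36, 54.8% in Lpin1 and 62.6% in Acss2. Windows of 300 bases, from 250 before to 50 after the start, were available for 30 of the 37 genes, and they were searched on both strands for the core site of AhR, TNGCGTG, and for a sterol regulatory element, TCACNCCAC. Neither motif was found in the windows of Cd36, Lpin1 or Acss2. The AhR core was held by 3 of the 45 windows of these 30 genes (6.67%, in Ppara, Lpin2 and Gpam) and by 5.07% of all 32851 windows. The sterol element was held by 3 of the 45 windows (6.67%), 1 of Acsl1 and 2 overlapping ones of Pcyt1a, and by 1.24% of all windows. The matches before the start of 3 of these genes are shown with the motif in capitals, at chr17:71183797-71183826 (plus strand), chr19:55099652-55099681 (minus strand) and chr16:32430794-32430823 (plus strand).
Lpin2: cgcggcctcgccTCGCGTGggccacgtagc
Gpam: gctagctgaggtCACGCAAgggagatggca
Pcyt1a: cttcggctcagTCACCCCACgcgcccggcc
The first pair hold the AhR core and the Pcyt1a window holds the sterol element. A match describes these letters and does not show that a factor binds there.

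Per transcript length, in the deposited FPKM values, the 37 genes covered a wide range of levels. Plin2, the coat protein of lipid droplets, had the highest median of the 12 libraries at 129 FPKM, and Scd1, which places a double bond in palmitate and stearate, followed at 127 FPKM. Their ranges of 109 to 143 FPKM and 86.8 to 162 FPKM overlapped. Acly, which makes cytosolic acetyl-CoA from citrate, came next with a median of 54.0 FPKM. A median of 10 to under 100 FPKM was seen in 18 genes and of 1 to under 10 FPKM in 16. Ppara, a nuclear receptor that drives fatty acid oxidation, was lowest at 0.311 FPKM, and Acss2, one of the genes that passed the CRE test, was next to it at 1.16 FPKM. Lpin1 also had a low level of 1.92 FPKM, whereas Cd36 had a median of 40.5 FPKM.

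**Figure D1:**
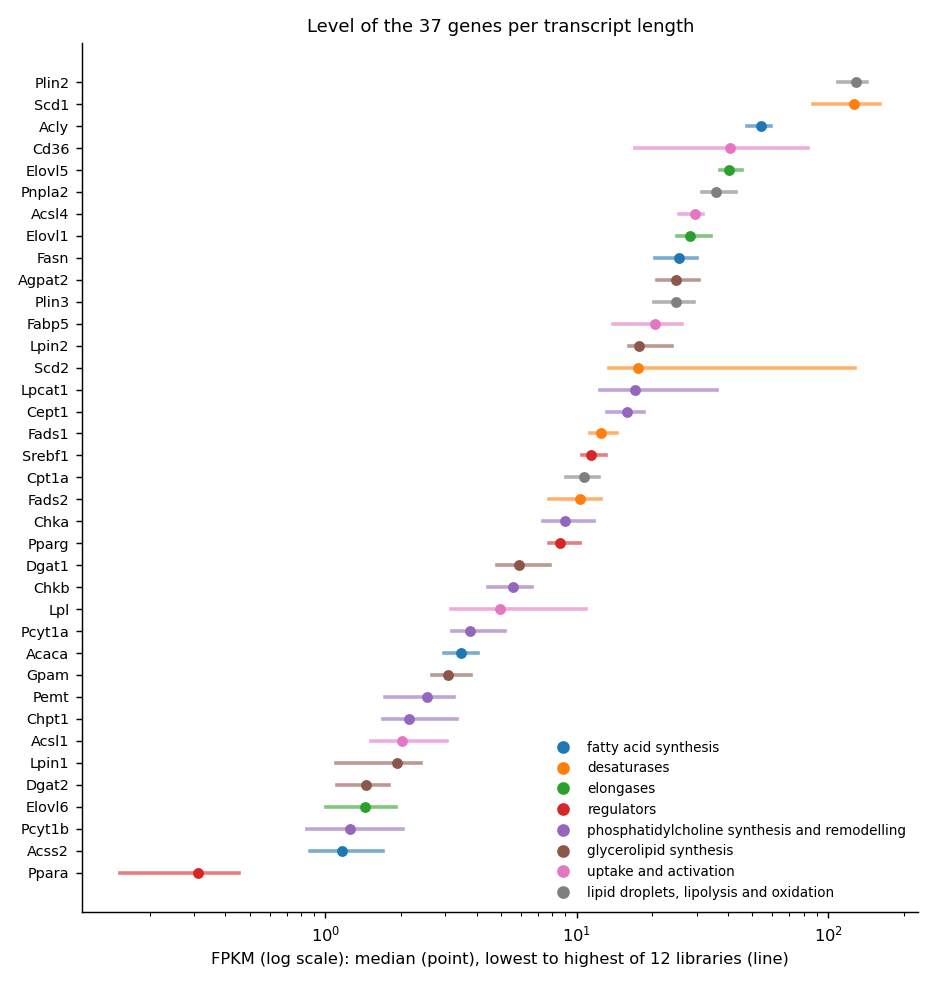
FPKM of each of the 37 genes on a log axis, with the median of 12 libraries as a point, the lowest to the highest library as a line and the role of the gene by colour. Plin2 and Scd1 lay above 100 FPKM and Ppara below 1 FPKM, and the widest line was that of Scd2, from 13.5 to 127 FPKM.

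CRE against PBS gave the most calls among these genes. Averaged over both genotypes, 3 of the 37 were called by edgeR (quasi-likelihood F test, Benjamini-Hochberg threshold 0.05), all higher with CRE. Of all tested genes 1.1% were called and 0.864% were called higher. They were Cd36, Lpin1 and Acss2. These were also the only members whose 3 CRE libraries all lay above the 3 PBS libraries in both genotypes, which 1.76% of all tested genes did. The CRE and PBS libraries of 1 number and genotype deviated together, and when they were treated as pairs 11 members were called against 6.59% of all tested genes. Among them 7 were higher (Cd36, Lpl, Lpin1, Acly, Fads2, Cpt1a and Acss2), against 3.47% of all tested genes, and 4 were lower (Acaca, Lpcat1, Plin3 and Scd1), against 3.11%. The median log2 fold change of the 37 was -0.01, beside -0.002 over all tested genes. Of the members, 11 were higher with CRE in all 6 pairs and 5 were lower in all 6, beside 7.57% and 6.79% of all tested genes.

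**Figure D2:**
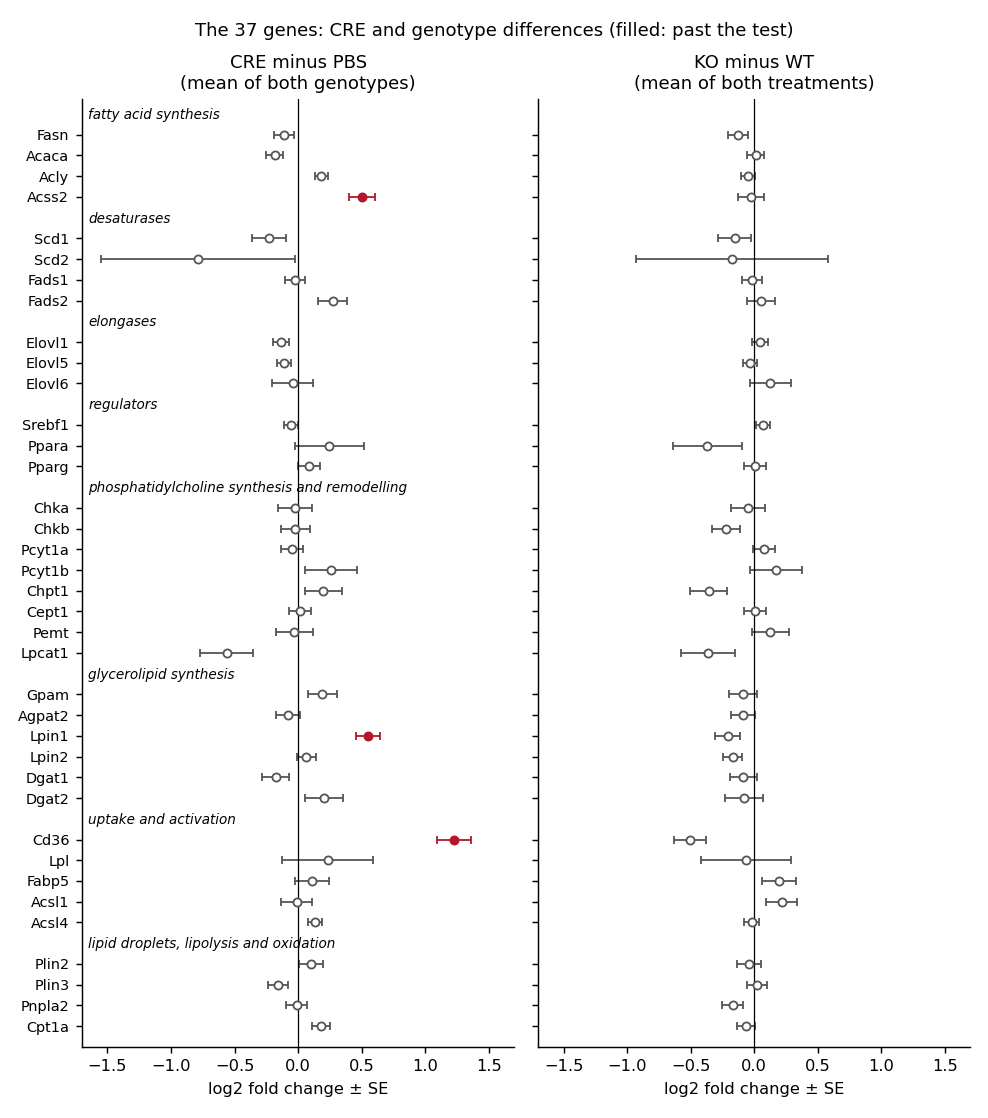
Log2 fold change ± SE of the 37 genes by role for CRE minus PBS (left, mean of both genotypes) and for KO minus WT (right, mean of both treatments), from 12 libraries. Filled points passed the edgeR test: Cd36, Lpin1 and Acss2 on the left and none on the right.

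Cd36 (ENSMUSG00000002944, on chromosome 5), which carries long-chain fatty acids across the cell membrane, showed the widest CRE difference of the genes called. In WT cells it stood at 138.6, 133.7 and 112.1 CPM with PBS and at 327.6, 322.9 and 292.9 CPM with CRE. The KO libraries were at 103.9, 67.2 and 113.0 CPM with PBS and at 178.3, 204.0 and 250.9 CPM with CRE. The CRE libraries lay above the PBS libraries in each genotype with no overlap. The level was 2.45-fold higher with CRE in WT cells (log2 fold change 1.30, SE 0.18, edgeR adjusted p = 0.0207) and 2.23-fold higher in KO cells (1.16, SE 0.18, edgeR adjusted p = 0.0315). Cd36 was the only member called within a single genotype, against 0.233% of all tested genes in WT cells and 0.262% in KO cells. Over both genotypes the log2 fold change was 1.23 (SE 0.13, edgeR adjusted p = 0.00116), and the call held in all 22 alternative settings, with adjusted p-values of at most 0.0288. The call within WT cells was lost in each of the 6 fits that left out 1 library (edgeR adjusted p = 0.0545 to 0.117), and the call within KO cells in 4 of 6 (up to 0.136), those without the PBS libraries 1 or 2 or the CRE libraries 2 or 3. The interaction for Cd36 (response in KO cells minus that in WT cells) was -0.14 with a 95% interval of -0.71 to 0.43 (log2). Because Cd36 is also known from macrophages, endothelium and adipocytes, their markers are given beside it. The sums of 13 alveolar macrophage markers and of 5 leukocyte markers were lower with CRE in all 6 pairs, that of 8 endothelial markers in 5 of 6, and 5 adipocyte markers summed to at most 1.64 CPM, with 4 of the 5 at 0 in at least 1 library. Without the 4 libraries numbered 1 the Cd36 difference over both genotypes was 1.33 (edgeR adjusted p = 0.0288). The part of macrophages, endothelium and adipocytes in the Cd36 difference was not tested.

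**Figure D3:**
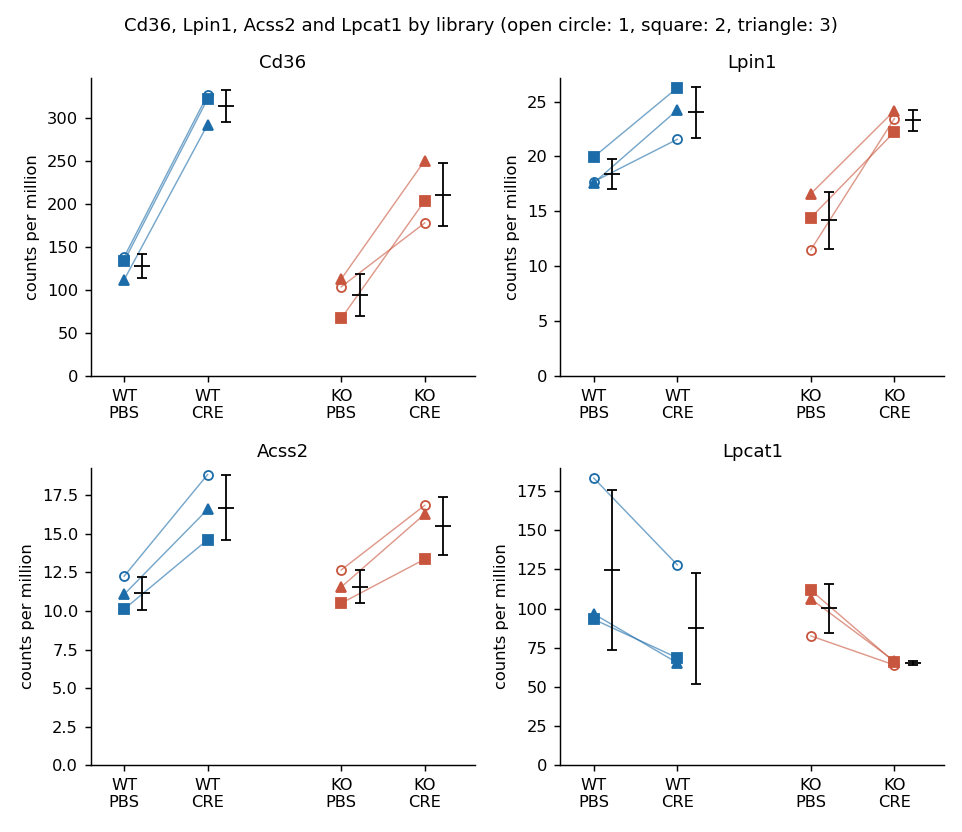
CPM of Cd36, Lpin1, Acss2 and Lpcat1 in each of the 12 libraries, with the CRE and PBS libraries of 1 number joined and the mean ± SD of each group of 3 in black. The first 3 genes are higher in every CRE library than in the PBS libraries of the same genotype, and Lpcat1 is lower with CRE in all 6 pairs.

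Among the other genes of uptake and activation, none passed the test without pairing. Lpl, lipoprotein lipase, which frees fatty acids from triglyceride-rich lipoproteins, was higher with CRE in all 6 pairs but varied more between numbers than with treatment. It stood at 110.9, 46.3 and 37.4 CPM in WT cells with PBS and at 124.3, 59.7 and 45.7 CPM with CRE. KO cells gave 90.2, 39.0 and 57.6 CPM with PBS and at 99.6, 45.3 and 73.2 CPM with CRE. The 4 libraries numbered 1 were thus the highest, at 90.2 to 124.3 CPM against 37.4 to 73.2 CPM in the other 8, and the same 4 had the highest sums of alveolar macrophage markers (151 to 246 CPM against 50.0 to 75.2 CPM). The part of these cells in the Lpl level was not tested. With pairs the CRE difference of Lpl was 0.25 (SE 0.04, edgeR adjusted p = 0.0186), and without pairs 0.23 (SE 0.36, edgeR adjusted p = 0.911). Acsl4, which activates arachidonate and other polyunsaturated fatty acids, was higher with CRE in all 6 pairs by 0.13 (log2, SE 0.06, not called with or without pairs). Fabp5, a fatty acid carrier of the cytosol, and Acsl1, another acyl-CoA synthetase, differed by 0.11 (SE 0.13) and -0.01 (SE 0.12), neither beyond the spread between libraries.

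Of the 6 genes of glycerolipid synthesis, which make phosphatidate, diacylglycerol and triglyceride, Lpin1 was called. Lpin1 (ENSMUSG00000020593, on chromosome 12) encodes a phosphatidate phosphatase that yields the diacylglycerol used for phosphatidylcholine and triglyceride. It stood at 17.7, 19.9 and 17.6 CPM in WT cells with PBS and at 21.6, 26.2 and 24.2 CPM with CRE. In KO cells it stood at 11.5, 14.4 and 16.6 CPM with PBS and at 23.5, 22.2 and 24.2 CPM with CRE. The PBS libraries of the KO cells were all lower than those of the WT cells, as in 3 of the 37 members and 7.38% of all tested genes. The CRE libraries of both genotypes overlapped. Over both genotypes Lpin1 was 1.46-fold higher with CRE (log2 0.55, SE 0.10, edgeR adjusted p = 0.0216), a call kept in 15 of 22 alternative settings and lost without the 4 libraries numbered 1 (edgeR adjusted p = 0.0813). Of the 12 fits that left out 1 library it was kept in 6 (edgeR adjusted p = 0.0157 to 0.0750), and lost without PBS library 3 or CRE library 2 or 3 of WT cells and without PBS library 2 or CRE library 1 or 3 of KO cells. With pairs it also passed within KO cells (0.73, SE 0.11, edgeR adjusted p = 0.0223) but not within WT cells (0.38, SE 0.11, edgeR adjusted p = 0.112), and the difference between these responses was 0.35 with pairs (SE 0.15, edgeR adjusted p = 0.551). The other 5 genes of the group were not called with or without pairs, at differences from -0.18 for Dgat1 to 0.21 for Dgat2 (log2), the acyltransferases of the last step of triglyceride synthesis. Gpam, which starts the pathway in mitochondria, was higher with CRE in all 6 pairs by 0.19 (SE 0.11).

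The 4 genes of fatty acid synthesis did not move together. Acss2 (ENSMUSG00000027605, on chromosome 2), which makes acetyl-CoA from acetate, stood at 12.3, 10.1 and 11.1 CPM in WT cells with PBS and at 18.8, 14.6 and 16.6 CPM with CRE. The KO libraries were at 12.7, 10.5 and 11.6 CPM with PBS and at 16.9, 13.4 and 16.3 CPM with CRE. Every CRE library was above every PBS library of its genotype. The difference over both genotypes was 1.42-fold (log2 0.50, SE 0.10, edgeR adjusted p = 0.0442), and the call held in 9 of 22 alternative settings, with adjusted p-values up to 0.147 without the 4 libraries numbered 1. Of the 12 fits that left out 1 library it was kept in 2, those without PBS library 1 of WT cells or CRE library 2 of KO cells (edgeR adjusted p = 0.0424 to 0.131 over the 12). With pairs Acss2 passed in WT cells (0.58, SE 0.08, edgeR adjusted p = 0.0140) and in KO cells (0.42, SE 0.08, edgeR adjusted p = 0.0459). Acly, the other source of acetyl-CoA, had means of 299 ± 4.32 and 345 ± 9.14 CPM (SD, n = 3) with PBS and CRE in WT cells and of 294 ± 25.7 and 329 ± 27.2 CPM in KO cells, a difference of 0.18 that passed with pairs only (SE 0.02, edgeR adjusted p = 0.00622). Acaca, acetyl-CoA carboxylase, which commits acetyl-CoA to synthesis, was lower with CRE in all 6 pairs, at -0.18 (SE 0.04, edgeR adjusted p with pairs = 0.0379). Fasn, fatty acid synthase, stood at -0.11 (SE 0.08), which was not called. The genes that supply acetyl-CoA were thus higher with CRE where the carboxylase was lower, all 3 in the paired fit.

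Desaturases and elongases showed small differences apart from Scd2. Fads2, the delta-6 desaturase, was higher with CRE in all 6 pairs by 0.28 (SE 0.06, edgeR adjusted p with pairs = 0.0458), and Fads1, the delta-5 desaturase, stood at -0.03 (SE 0.08) without pairs. Scd1 was lower with CRE in all 6 pairs, at means of 768 ± 84.9 and 670 ± 83.2 CPM with PBS and CRE in WT cells and of 705 ± 158 and 588 ± 119 CPM in KO cells (SD, n = 3). Its difference of -0.23 passed with pairs (SE 0.03, edgeR adjusted p = 0.00611) and not without (SE 0.13, edgeR adjusted p = 0.599). Elovl1 and Elovl5, which extend saturated very long and polyunsaturated chains, were lower in all 6 pairs, at -0.13 (SE 0.06) and -0.11 (SE 0.05), and Elovl6, which extends palmitate to stearate, stood at -0.04 (SE 0.16). None of these 3 was called with or without pairs. The regulators Srebf1, Pparg and Ppara had CRE differences of -0.05 (SE 0.05), 0.08 (SE 0.09) and 0.25 (SE 0.27), none called. Srebf1 encodes SREBP-1, which drives lipogenic genes, and its 12 libraries lay between 64.5 and 80.7 CPM.

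Of the 8 genes of phosphatidylcholine synthesis and remodelling, Lpcat1 had the largest CRE difference. Lpcat1 (ENSMUSG00000021608, on chromosome 13) stood at 183.2, 93.1 and 96.6 CPM in WT cells with PBS and at 127.9, 68.6 and 65.4 CPM with CRE. KO cells gave 82.5, 111.7 and 106.2 CPM with PBS and at 64.0, 65.9 and 66.5 CPM with CRE. In KO cells the CRE libraries lay below the PBS libraries, as in 3 of the 37 members and 5.35% of all tested genes. In WT cells the library numbered 1 stood above the others under both treatments and the groups overlapped. Over both genotypes the log2 fold change was -0.56 (SE 0.21), with an edgeR adjusted p of 0.329 without pairs and 0.00232 with pairs. Lpcat1 also passed with pairs in WT cells (-0.51, SE 0.08, edgeR adjusted p = 0.0220) and in KO cells (-0.60, SE 0.08, edgeR adjusted p = 0.0145). Without the 4 libraries numbered 1, an alternative chosen after seeing the data, and without pairs it was -0.61 (edgeR adjusted p = 0.00455). Over both genotypes Lpcat1 passed in only 2 of 22 alternative settings, with adjusted p-values up to 0.539. Of the 12 fits that left out 1 library it passed in 0 (edgeR adjusted p = 0.114 to 0.539). The summed AT1 markers and the summed club cell markers were lower with CRE in all 6 pairs, and the summed AT2 markers in 3 of 6. These 3 were the WT pairs, at 7775 to 8770 CPM with PBS and 6665 to 7469 CPM with CRE. In KO cells the AT2 sum was higher with CRE in each pair, at 4445 to 8679 CPM with PBS and 4646 to 9227 CPM with CRE. In bulk samples, fewer cells of a type and less RNA per cell cannot be told apart. The other 7 genes were not called with or without pairs. They were the choline kinases Chka and Chkb (-0.03, SE 0.13 and -0.02, SE 0.11), the cytidylyl-transferases Pcyt1a and Pcyt1b (-0.05, SE 0.09 and 0.26, SE 0.20), the choline phosphotransferases Chpt1 and Cept1 (0.20, SE 0.15 and 0.01, SE 0.09) and the methyltransferase Pemt (-0.03, SE 0.15). Chkb shares 50.7% of its exon bases with a readthrough gene on the same strand, so its counts are uncertain.

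Among the genes of lipid droplets, lipolysis and oxidation, none was called without pairs. Cpt1a, which admits fatty acids to mitochondria, was higher with CRE in all 6 pairs, at means of 86.2 ± 3.89 and 100.8 ± 5.94 CPM in WT cells and of 84.9 ± 11.1 and 93.1 ± 8.69 CPM in KO cells with PBS and CRE (SD, n = 3), and it passed with pairs at 0.18 (SE 0.04, edgeR adjusted p = 0.0416). Plin3, a droplet coat protein that is also cytosolic, passed with pairs at -0.16 (SE 0.03, edgeR adjusted p = 0.0427), and within WT cells at -0.26 (SE 0.05, edgeR adjusted p = 0.0410). Plin2 was higher in all 6 pairs by 0.10 (SE 0.02, edgeR adjusted p with pairs = 0.0550), just short of the threshold. Pnpla2, the triglyceride lipase of droplets, stood at -0.01 (SE 0.08).

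Within single genotypes, pairing raised the members called from 1 to 5 in both. In WT cells they were Cd36, Acly and Acss2, higher with CRE, and Lpcat1 and Plin3, lower, beside 3.63% of all tested genes (1.87% higher and 1.76% lower). For KO cells they were Cd36, Lpin1 and Acss2, higher, and Lpcat1 and Scd1, lower, beside 2.13% of all tested genes (1.33% higher and 0.796% lower). By the rule of the study, which is an unadjusted limma p below 0.05 with an absolute log2 fold change above 0.5, 2 members passed in WT cells (Cd36 and Acss2, against 4.11% of all tested genes) and 2 in KO cells (Cd36 and Lpin1, against 3.38%).

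No member was called between KO and WT cells by edgeR. With PBS edgeR called 0.15% of all tested genes. The unadjusted p was below 0.05 in 4 members, beside 8.37% of all tested genes, and DESeq2 called no member, beside 1.18%. With CRE edgeR called 0.17% of all tested genes, 2 members had such an unadjusted p, beside 5.95%, and DESeq2 called none, beside 0.844%. Averaged over both treatments edgeR called 0.631% of all tested genes, 4 members had such an unadjusted p, beside 9.93%, and DESeq2 called 1 member, Cd36, beside 2.53%. The CPM of Cd36 given above overlapped between genotypes with PBS, at a log2 difference of -0.44 (SE 0.18), and with CRE every KO library was below every WT library, at -0.58 (SE 0.18, 95% interval -0.98 to -0.17). The average over both treatments was -0.51 (SE 0.13), with an edgeR adjusted p of 0.162 and a DESeq2 adjusted p of 0.0138. DESeq2 was the only 1 of 21 alternative settings in which this difference passed, and the other adjusted p-values reached 0.514. Of the 12 fits that left out 1 library it passed in 0 (edgeR adjusted p = 0.130 to 0.354). With CRE, KO libraries all below the WT libraries were seen in 1 of the 37 members and in 5.43% of all tested genes. Cd36 with CRE was also the only member that met the rule of the study between genotypes under a single treatment, against 3.42% of all tested genes with CRE and 4.1% with PBS. The comparisons of the KO and the WT cells share their libraries with the CRE comparisons.

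The 6 genes of glycerolipid synthesis were all lower in KO than in WT cells with PBS, at differences of -0.38 to -0.02 (log2), and over both treatments, at -0.21 to -0.08, with none called. With CRE 5 of the 6 were below 0. The 4 genes of lipid droplets, lipolysis and oxidation were also all lower with PBS, as were 26 of the 37 members. For all tested genes 49.8% of differences with PBS and 48.7% over both treatments were above 0. With PBS the summed AT2 markers lay at 7775 to 8770 CPM in WT cells and at 4445 to 8679 CPM in KO cells. The summed ciliated cell markers lay at 56.2 to 82.1 CPM in WT cells and at 78.5 to 152 CPM in KO cells. The part of cell content in the differences between genotypes was not tested. Lpin2, a second phosphatidate phosphatase, stood at 233.3, 331.2 and 281.1 CPM in WT cells with CRE and at 219.0, 233.4 and 227.8 CPM in KO cells with CRE. With PBS it stood at 234.1, 248.2 and 249.7 CPM in WT cells and at 223.9, 246.1 and 250.02 CPM in KO cells. The groups overlapped under both treatments, with a difference of -0.31 (SE 0.11) under CRE that was not called and ranged from -0.43 to -0.18 when 1 library was left out. Chpt1, which joins phosphocholine to diacylglycerol, stood at 27.1, 17.1 and 21.6 CPM in WT cells with PBS and at 19.2, 31.4 and 29.9 CPM with CRE. In KO cells it stood at 19.1, 19.8 and 15.8 CPM with PBS and at 18.1, 21.9 and 18.8 CPM with CRE. The genotypes overlapped under both treatments, and the average difference of -0.36 (SE 0.15) was not called (edgeR adjusted p = 0.432). The median difference between genotypes over the 37 members was -0.05 with PBS and -0.04 with CRE, and over all tested genes -0.001 and -0.003.

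The response to CRE was compared between genotypes in the same fit. By edgeR no member was called, as none of the 20612 genes was (0.0%). Before adjustment 1 member had a p below 0.05, beside 3.7% of all tested genes, and DESeq2 called no member, beside 0.112%. That member was Pcyt1a, the cytidylyl-transferase that is rate-limiting for phosphatidylcholine synthesis. It stood at 30.3, 28.98 and 28.2 CPM in WT cells with PBS and at 31.5, 35.4 and 31.8 CPM with CRE. The KO libraries were at 41.4, 34.8 and 31.2 CPM with PBS and at 34.6, 27.3 and 27.2 CPM with CRE. CRE libraries were higher in all 3 WT pairs and lower in all 3 KO pairs, and such opposite pairs were found in 4.48% of all tested genes. For Cd36, Lpin1 and Acss2 the responses had the same direction in both genotypes.

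Other genes of the same pathways, 126 in all of which 119 were tested, gave 2 calls for CRE over both genotypes, 1 higher and 1 lower, beside 0.864% and 0.233% of all tested genes. Prdx6, a peroxiredoxin with phospholipase A2 activity towards surfactant phosphatidylcholine, stood at 680, 759 and 682 CPM in WT cells with PBS and at 945, 996 and 916 CPM with CRE. KO cells gave 686, 663 and 655 CPM with PBS and at 803, 1013 and 1002 CPM with CRE. The groups did not overlap in either genotype, and the difference was 0.46 (SE 0.06, edgeR adjusted p = 0.00689). Fabp3, a fatty acid binding protein of heart and muscle, stood at 19.7, 15.8 and 18.3 CPM in WT cells with PBS and at 9.95, 9.84 and 10.5 CPM with CRE. In KO cells it stood at 12.6, 16.7 and 15.9 CPM with PBS and at 6.56, 10.9 and 8.68 CPM with CRE. It was lower with CRE in both genotypes without overlap, at -0.81 (SE 0.13, edgeR adjusted p = 0.0145). With pairs, 7 of the 119 were higher and 7 lower with CRE over both genotypes, beside 3.47% and 3.11% of all tested genes. The higher ones included the choline transporter Slc44a1 (0.28, SE 0.03), malic enzyme Me1 (0.22, SE 0.02), a source of NADPH for lipogenesis, and the nuclear receptor Ppard (0.97, SE 0.19). With pairs Ppard passed in WT cells (1.41, SE 0.26, edgeR adjusted p = 0.0399) and not in KO cells (0.52, SE 0.26, edgeR adjusted p = 0.445). Its responses did not differ past the test (-0.89, SE 0.37, edgeR adjusted p with pairs = 0.546). The lower ones included Slc44a3 (-0.21, SE 0.03), another Slc44 gene, Fads3 (-0.21, SE 0.03) and Decr1 (-0.20, SE 0.04), an enzyme of beta-oxidation. Between genotypes over both treatments edgeR called 0 of the 119, with 13 at an unadjusted p below 0.05 and 5 meeting the rule of the study, beside 9.93% and 4.11% of all tested genes. For the interaction edgeR called 0, with 3 at an unadjusted p below 0.05 and 3 meeting that rule, beside 3.7% and 2.3% of all tested genes.

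Most members varied little between the libraries of a group, with one exception that was singled out after its values were seen. Of the 33 members with a mean of at least 10 CPM, 31 had a highest library under 2 times the lowest in every group, the others being Lpl and Scd2. Scd2, a second stearoyl-CoA desaturase, stood at 514, 692 and 87.8 CPM in WT cells with PBS and at 423, 111 and 94.4 CPM with CRE. The KO libraries were at 101, 763 and 93.7 CPM with PBS and at 80.0, 82.3 and 499 CPM with CRE. Thus 5 libraries lay between 423 and 763 CPM and the other 7 between 80.0 and 111 CPM, with both kinds in every group and under every number. The highest library was 4.48 to 8.14 times the lowest within each group, and a ratio above 4 in every group, a limit set after the values were seen, was found in 45 of the 9899 genes with a mean of at least 10 CPM (0.455%). The CRE difference of Scd2, -0.79 (SE 0.76), was within the spread between libraries.

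**Figure D4:**
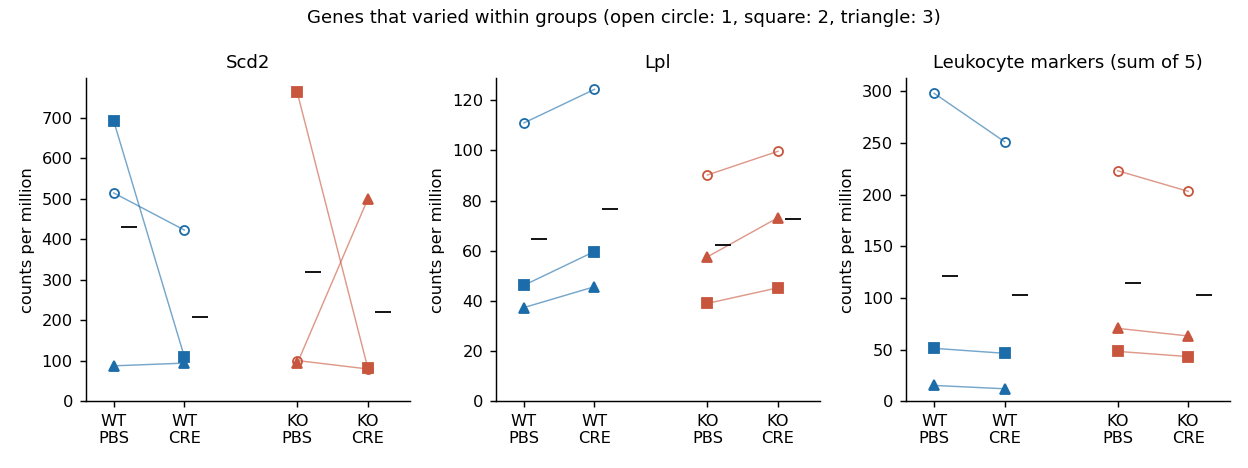
CPM of Scd2, of Lpl and of the summed 5 leukocyte markers in each library, with libraries of 1 number joined and the group mean as a black bar. Lpl and the leukocyte markers are highest in the 4 libraries numbered 1, whereas the 5 libraries with high Scd2 follow neither group nor number.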

How the data were processed

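RNA-seq libraries from 4 groups of 3 were analysed. The authors made stranded mRNA libraries, aligned reads to GRCm38 with STAR 2.7.2b and used Salmon to count them per gene. The deposited counts are raw whole numbers, and how these were reached is not given in the sources used here. The deposited FPKM values were made by the authors, and they were used only to compare levels between genes. The study names RefSeq for annotation, whereas all 55450 gene IDs were found in GENCODE M21, from which symbols and positions were taken.

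Counts were filtered with filterByExpr (minimum count 10), scaled with TMM and tested with edgeR 4.0.16 under R 4.3.3, with quasi-likelihood tests in 1 fit of 4 group means to 12 libraries and Benjamini-Hochberg adjustment over 20612 genes at 0.05. CRE was compared with PBS in each genotype and over both, the genotypes with each treatment and over both, and the responses by their interaction. For the rule of the study limma 3.58.1 was run on log2 CPM (prior count 2). Libraries of the same number and genotype deviated together between CRE and PBS (r = 0.729, 0.418 and 0.651 in WT cells and 0.589, 0.542 and 0.325 in KO cells, over 14543 genes), so values with these pairs are given. Between genotypes they did not all do so. Alternatives were DESeq2 1.42.0, limma, other scalings and filters, blocks, and leaving out libraries. The fits were tested on simulated data.

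The members and gene lists were chosen with earlier results of these data known. Each library's values are given for members called by edgeR in any comparison, among the 3 smallest p-values of any comparison or meeting the rule of the study between 2 groups. Promoter sequences came from RefSeq (GRCm38.p6). At these depths 3 counts, an approximate upper limit for the expected count behind a count of 0, are 0.0371 to 0.0436 CPM, for counting error only.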

Additional observations from a re-analysis of the deposited data

Results flagged for a closer look

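Pcyt1a and Pemt showed opposite CRE responses in the genotypes. Each pair of WT libraries moved one way and each pair of KO libraries the other. Such a split was seen in 2 of the 37 members and in 4.48% of all tested genes. The difference between the responses (KO minus WT) was -0.44 on the log2 scale for Pcyt1a (SE 0.17, unadjusted p = 0.0273, edgeR adjusted p = 1.0, and 0.494 with pairs). For Pemt, which makes phosphatidylcholine by methylation of phosphatidylethanolamine, it was 0.48 (SE 0.29, edgeR adjusted p = 1.0, and 0.511 with pairs). Pemt stood at 4.95, 6.79 and 6.96 CPM in WT cells with PBS and at 4.01, 6.23 and 5.26 CPM with CRE. In KO cells it stood at 6.31, 5.75 and 5.24 CPM with PBS and at 7.39, 5.86 and 6.74 CPM with CRE. Neither difference passed the test.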

How the results depend on the processing

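The fold changes of the genes named by the rule kept their sign under every alternative in the comparisons that named them. Other values that were not called could change sign, such as Lpcat1 between genotypes over both treatments, from -0.36 to 0.09 without the 4 libraries numbered 1. Members called for CRE numbered 1 in WT cells, 1 in KO cells and 3 over both. With DESeq2 they were 2 in WT cells and 2 in KO cells (409 and 254 genes in all, against 48 and 54), and with the replicate number as an additive block also 2 and 2 (137 and 112 genes). With the replicate block within genotype they were 5, 5 and 11 (748, 439 and 1358 genes, the last against 226). This pairing changed no call for the interaction. Between genotypes the libraries share only a number (r = 0.420, 0.0416 and 0.106 with PBS), and the additive block called 0 members there. Only the 6 libraries compared gave 0 in KO cells (13 genes), and without the 4 libraries numbered 1, an alternative chosen after seeing the data, 0 members were called in WT cells and the median of the members over both genotypes was 0.0643. Between genotypes over both treatments DESeq2 called 1 member (522 genes against 130). With log2(FPKM + 1) the rule of the study was met by 1 member in WT cells, 1 in KO cells and 0 between genotypes over both treatments. Leaving out 1 library gave 0 to 0 members called in WT cells, 0 to 1 in KO cells and 1 to 3 over both. The members' median then ranged from -0.0699 to 0.0150 for CRE in WT cells, from 0.0308 to 0.107 in KO cells and from -0.0181 to 0.0400 over both, from -0.0852 to -0.0091 between genotypes with CRE, and from -0.0426 to 0.0653 for the interaction. The cause of these shifts was not tested. Other scalings moved the median of all tested genes by less than 0.1. With 3 libraries a group, an exact permutation test of 1 gene cannot go below 0.1.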
